A study of Homo sapiens with 10 samples.

Results

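The 10 genes described here are GATA1, GATA2, TAL1, LMO2, LYL1, ERG, FLI1, MYB, HHEX and GFI1B, transcription factors and 1 adaptor protein of blood stem cells and of the erythroid lineage. They were taken by name from the 19590 genes of the expression table, and all 10 were found there. RNA-Seq was performed in MV4-11 cells, an established line of acute myeloid leukemia (AML) of monocytic type that carries a KMT2A-AFF1 fusion and an internal tandem duplication of FLT3. The 4 Control libraries came from cells infected with the control vector, and the 4 IRF8 KO libraries from cells in which IRF8, an interferon regulatory factor of monocyte development, had been targeted with a CRISPR vector. Both groups were infected with lentivirus, selected with puromycin and grown in the same medium. The knockout RNA came from clones grown out of single cells, and the clone behind each library was not given in the sources used here, so that knockout and clonal origin cannot be told apart. It is not stated that the replicates were separate cultures, so p-values measure the spread between these libraries, which may be technical.

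In blood stem and progenitor cells, GATA2, the basic helix-loop-helix factors TAL1 and LYL1, the LIM-only adaptor LMO2, the ETS factors ERG and FLI1 and RUNX1 bind together at many enhancers. TAL1 or LYL1 pairs with an E protein such as TCF3, LMO2 and LDB1 bridge this dimer to a GATA factor, and ERG or FLI1 occupy neighbouring ETS sites. During erythroid and megakaryocytic differentiation GATA1 takes the place of GATA2, and the repressor GFI1B comes up with it. MYB keeps progenitors proliferating and is required in many AML cells, and HHEX is a homeobox repressor of early blood development. The E proteins and corepressors that bind these factors, their family relatives and genes of the lineages they direct were examined as lists beside them.

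Reads on genes numbered 39560072 in the shallowest library, 52233344 in the median and 65519047 in the deepest. Values below are DESeq2-normalized counts, that is, reads divided by 1 size factor per library, and log2 fold changes are IRF8 KO minus Control on log2(normalized count + 1), which understates the change of low genes. Genes with a mean of at least 10 over the 8 libraries were tested with limma, and a gene was called at a Benjamini-Hochberg adjusted p below 0.05 over all 13110 tested genes. IRF8 itself had 36891, 15192, 43016 and 22535 normalized counts in Control replicates 1 to 4 and 6377, 2401, 12903 and 7819.7 in IRF8 KO replicates 1 to 4. The groups did not overlap, the log2 fold change was -2.11 (SE 0.51, limma adjusted p = 0.022), and the call was lost without Control replicate 1 (adjusted p = 0.058), Control replicate 3 (0.057) or IRF8 KO replicate 1 (0.053). Averaging Control replicates 1 and 3 also lost this call. By Western blot, the paper reported that IRF8 protein was absent from the knockout clones, and these RNA values do not measure protein. Of 11 myelomonocytic markers, all 11 were tested, with 3 called higher (CD68, ITGAM and MPO) and 0 lower. Over all tested genes, 8.65% were called higher and 9.56% lower. The estimates of CD33, CSF1R and FLT3 were negative and not called. The 11 markers summed to 97234 to 101685 in Control and 121631 to 357871 in IRF8 KO. LYZ, named after its values were seen, was not called (limma adjusted p = 0.060) and alone had 248604 normalized counts in IRF8 KO replicate 1, and the 10 other markers summed to 82477 to 99952 in Control and 99335 to 109267 in IRF8 KO. The summed T cell markers stayed at or below 20.3 in any library. The platelet markers summed to 5680 to 14677 in Control and 2238 to 10219 in IRF8 KO, with 2 of 5 at 0 in every library. Nearly all of this sum was ITGA2B, at 5624 to 14575 in Control and 2085 to 10101 in IRF8 KO (limma adjusted p = 0.186, not called). GP1BA went the other way, with means of 76.4 in Control and 116 in IRF8 KO (limma adjusted p = 0.288, not called). GP9 stayed at or below 18.7. These 3 genes were named after their values were seen.

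Of the 10 factors, 8 passed the filter on low values, while GATA1 and GFI1B did not. ERG, FLI1, HHEX and LYL1 were called higher in IRF8 KO, against 8.65% of all tested genes called higher. None was called lower, against 9.56% of all tested genes. ERG passed the filter only through the knockout libraries, so it could enter these counts and the median below only with a rise. The same 4 genes were those whose Control and IRF8 KO values did not overlap, against 25.3% of all tested genes. With the replicate number as a block, 5 were called higher and 1 lower (GATA2 and TAL1 joined the 4), against 14.2% and 14.6% of all tested genes. The log2 fold changes of the 8 tested factors had a median of 0.60, with 7 above 0 and 1 below, and the median over all tested genes was -0.00. By the thresholds of the study (p below 0.01 and at least 2-fold), only ERG was called, against 4.78% of all tested genes called higher and 6.12% called lower. The RNA was taken from whole cultures, in which fewer cells of a type and less RNA per cell cannot be told apart.

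**Figure D1:**
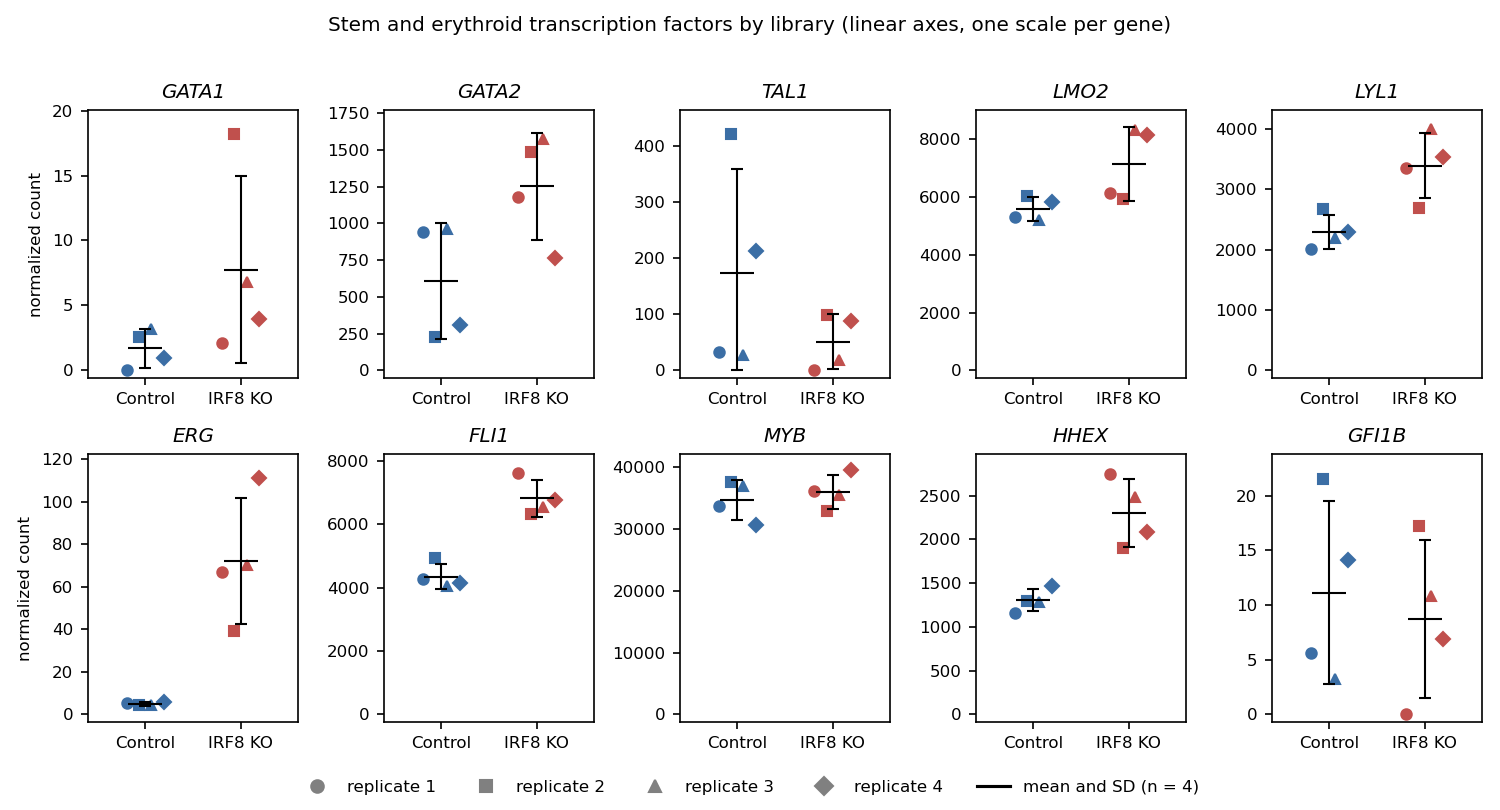
Normalized counts of the 10 factors in each library, with a linear axis of its own for each gene; symbols stand for replicate numbers, and bars for the mean and SD of 4 libraries. ERG, FLI1, HHEX and LYL1 have every IRF8 KO library above every Control library, and GATA2 and TAL1 are spread widely within Control.

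ERG had the log2 fold change furthest from 0 among the 8 tested factors. Because it passed the filter on low values only through the knockout libraries, the tests below could find a rise but not a fall. ERG is an ETS factor that maintains hematopoietic stem cells and is overexpressed in some acute leukemias. Control replicates 1 to 4 had 5.63, 4.31, 4.30 and 5.65 normalized counts, which rest on 7, 5, 4 and 6 reads. IRF8 KO replicates 1 to 4 had 67.1, 39.2, 70.4 and 111, from 63, 41, 52 and 113 reads. ERG was thus near the detection limit in every Control library and low but clearly counted in every knockout library. The group means were 4.97 ± 0.771 and 72.0 ± 29.6 (SD, n = 4 each), a ratio of 14.5, and the log2 fold change was 3.53 (SE 0.36, limma adjusted p = 3.8e-04). The two-sided exact permutation test over the libraries gave p = 0.029, the smallest that 4 against 4 values allow. Leaving out any 1 library kept the call, with log2 fold changes between 3.29 and 3.78 and adjusted p of at most 0.0021. The count models gave larger estimates for this low gene, at 3.81 with edgeR (adjusted p = 5.1e-04) and 3.85 with DESeq2 (adjusted p = 7.7e-12).

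ERG is a gene of chromosome 21, where the median log2 fold change over 129 tested genes was -0.33 and 29 were called lower and 9 higher. Relative to the median of the other chromosome 21 genes in each library, ERG ranged from -0.22 to 0.16 in Control and from 3.09 to 4.58 in IRF8 KO. The difference was 3.87 on the log2 scale, without overlap between the groups (two-sided exact permutation p = 0.029). The chromosome median itself was between -0.32 and -0.33 in every IRF8 KO library. This comparison therefore rests on the same ERG values as above and is not a second test of the rise. RUNX1, a partner of ERG at shared enhancers, lies on the same chromosome. It had a mean of 23269 ± 2216 in Control and 17921 ± 3991 in IRF8 KO (SD, n = 4 each), and its log2 fold change was -0.40 (SE 0.17, limma adjusted p = 0.148, and 0.035 with the replicate block). Relative to the chromosome 21 median, the RUNX1 difference was -0.06 (two-sided exact permutation p = 0.83).

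FLI1, the closest relative of ERG in this set and a factor of megakaryocytes and stem cells, was also higher in IRF8 KO. It had 4257, 4944, 4061 and 4132 normalized counts in Control replicates 1 to 4 and 7627, 6337, 6529.9 and 6752 in IRF8 KO replicates 1 to 4. All knockout values lay above all Control values. The means were 4349 ± 405 and 6812 ± 569 (SD, n = 4 each), a ratio of 1.57, with a log2 fold change of 0.65 (SE 0.11, limma adjusted p = 0.0051). The call held without any 1 library (adjusted p between 0.0062 and 0.020). The change of ERG exceeded that of FLI1 by 2.88 on the log2 scale, and the 4 IRF8 KO values of their log2 difference lay above the 4 Control values. The two-sided exact permutation p was 0.029, which became 0.086 after adjustment over the 3 family pairs compared, and 0.125, the smallest possible, over the 4 replicate numbers as a block. The log2 difference of LYL1 and TAL1 changed by 2.55 (adjusted exact permutation p = 0.26) and that of GATA2 and GATA1 by -0.31 (adjusted exact permutation p = 0.77), with overlapping groups in both.

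HHEX had 1160.0, 1302, 1289 and 1468 normalized counts in Control replicates 1 to 4 and 2751, 1897, 2490.3 and 2085 in IRF8 KO replicates 1 to 4. The lowest knockout library was above the highest Control library. The means were 1305 ± 126 and 2306 ± 387 (SD, n = 4 each), a ratio of 1.77, with a log2 fold change of 0.81 (SE 0.15, limma adjusted p = 0.0060) and adjusted p between 0.0051 and 0.021 when 1 library was left out. LYL1 had 2015, 2678, 2197 and 2287 in Control and 3347, 2693, 4004 and 3532 in IRF8 KO, in the order of the replicates. The groups were separated only narrowly, by replicate 2 of each group. LYL1 had means of 2294 ± 279.8 and 3394 ± 543 (SD, n = 4 each), a ratio of 1.48, and a log2 fold change of 0.56 (SE 0.15, limma adjusted p = 0.033). Leaving out any single library, except replicate 2 of either group, took the adjusted p of LYL1 above the threshold (limma adjusted p between 0.072 and 0.092).

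**Figure D2:**
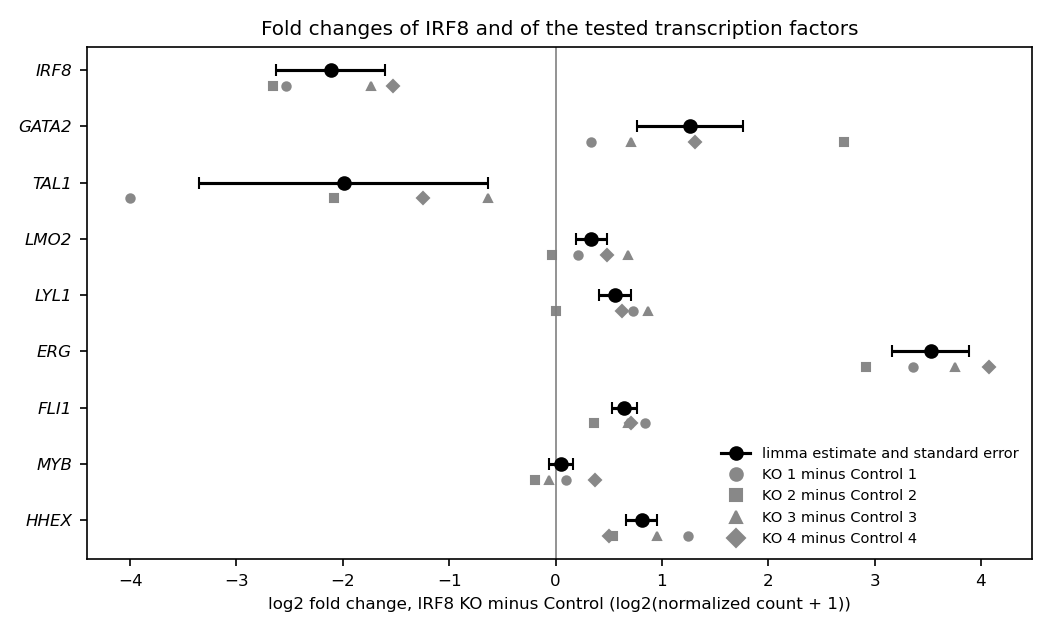
Log2 fold changes (horizontal axis) of IRF8 and the 8 tested factors: black points with bars are the limma estimate and its standard error, and grey symbols the difference between IRF8 KO and Control libraries of the same replicate number. ERG lies furthest from 0 at 3.53, and the TAL1 estimate of -1.99 has the widest bar.

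For LYL1, HHEX and ERG, which were higher in IRF8 KO, start-site windows that hold matches to the motifs of the set itself are shown. Windows of 300 bases, 250 before and 50 after the start site, were taken from RefSeq (GRCh38.p14) and were found for 8 of the 10 factors (all but FLI1 and LMO2), 14 windows in all. Searched on both strands were the GATA motifs AGATAA and TGATAA, the E-boxes CAGATG and CAGCTG, the ETS motifs CCGGAA and AGGAAG, the RUNX motif TGTGGT, the MYB motifs AACTGC and AACGGC, an ETS-IRF composite (GGAA, any 2 bases, GAAA) and an interferon-response-like motif (GAAA, any 2 bases, GAAA). The last pair of motifs share GAAA and can overlap. Capitals mark every match in the windows of LYL1 (chr19:13102809-13103108, minus strand), HHEX (chr10:92689705-92690004, plus strand) and the third ERG window (chr21:38498455-38498754, minus strand), printed 5′ to 3′ along the gene.

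LYL1: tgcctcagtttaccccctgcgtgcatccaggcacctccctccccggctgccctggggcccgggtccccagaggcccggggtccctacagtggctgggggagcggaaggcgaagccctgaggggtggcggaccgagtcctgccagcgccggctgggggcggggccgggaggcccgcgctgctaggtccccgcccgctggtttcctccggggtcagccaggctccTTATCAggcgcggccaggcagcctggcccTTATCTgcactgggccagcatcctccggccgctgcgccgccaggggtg
HHEX: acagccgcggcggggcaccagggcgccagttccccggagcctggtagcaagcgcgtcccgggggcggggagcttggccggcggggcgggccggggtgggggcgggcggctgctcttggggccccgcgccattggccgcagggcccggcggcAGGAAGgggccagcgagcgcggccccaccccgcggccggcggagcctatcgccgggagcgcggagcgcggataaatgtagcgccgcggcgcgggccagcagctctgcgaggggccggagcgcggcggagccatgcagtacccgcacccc
ERG: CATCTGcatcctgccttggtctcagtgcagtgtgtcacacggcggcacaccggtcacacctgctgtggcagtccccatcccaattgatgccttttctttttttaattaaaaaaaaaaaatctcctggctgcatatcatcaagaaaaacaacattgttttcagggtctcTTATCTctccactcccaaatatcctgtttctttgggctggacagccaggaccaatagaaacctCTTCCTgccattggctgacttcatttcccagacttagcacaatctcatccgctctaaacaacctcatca

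Counting from -1 for the base before the start site and 1 for the first base after it, the LYL1 window held AGATAA at 3 and TGATAA at -27, both on the opposite strand. AGATAA occurred in 10.3% and TGATAA in 7.53% of the 35116 windows of all genes. The HHEX window held AGGAAG at -99, a motif found in 33.6% of all windows. The ERG window held AGATAA at -82, the E-box CAGATG at -250 (14.7% of all windows) and AGGAAG at -19, all on the opposite strand. Another ERG window, which overlaps the third, held AGATAA and AGGAAG of the same stretch, and the first and second ERG windows had no match. Windows of TAL1, GATA2, GFI1B and GATA1, which were not called in the main test, also held matches. Among these were AGATAA for TAL1 and TGATAA for GFI1B, while the MYB window held no match. Whether the matches go with a rise in IRF8 KO was not tested. None of the 14 windows contained the ETS-IRF composite (2.82% of all windows) or the interferon-response-like motif (3.57%). These matches describe letters in the windows, and binding was not analysed here.

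Neither GATA factor was called. GATA2, which maintains stem cells and directs mast cells and megakaryocytes, had 938, 225, 962 and 309 normalized counts in Control replicates 1 to 4 and 1179.7, 1483, 1574 and 767 in IRF8 KO replicates 1 to 4. Control replicates 1 and 3 stood well above replicates 2 and 4, and IRF8 KO replicate 4 fell between these levels, so that the groups overlapped. The means were 609 ± 396 and 1251 ± 364 (SD, n = 4 each), and the log2 fold change of 1.27 (SE 0.50) did not pass the threshold (limma adjusted p = 0.118). All 4 libraries of IRF8 KO were above the Control library of the same number, by 0.33, 2.71, 0.71 and 1.31 on the log2 scale, and with the replicate number as a block GATA2 passed (SE 0.36, adjusted p = 0.038). Within replicates 1 and 3 the log2 difference was 0.52, and within replicates 2 and 4 it was 2.01. It was not given in the sources used here whether reads were counted by strand, so reads of GATA2 and of antisense RNA at its locus may not be separated.

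GATA1, the master factor of red cells, megakaryocytes, mast cells and eosinophils, was hardly detected. Control replicates 1 to 4 had 0, 3, 3 and 1 reads and IRF8 KO replicates 1 to 4 had 2, 19, 5 and 4. In normalized counts the means were 1.69 ± 1.48 and 7.75 ± 7.20 (SD, n = 4 each), and the groups overlapped, with IRF8 KO replicate 2 as the highest library. Without the filter on low values, its log2 fold change was 1.57 (SE 0.64, limma adjusted p = 0.147). GFI1B, a repressor that acts downstream of GATA1, had 7, 25, 3 and 15 reads in Control and 0, 18, 8 and 7 in IRF8 KO. Its means of 11.1 ± 8.38 and 8.73 ± 7.21 (SD, n = 4 each) overlapped as well, with an unfiltered log2 fold change of -0.62 (SE 0.91, limma adjusted p = 0.71). For both genes the difference was within the spread between libraries, and the part of depth in this was not tested.

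TAL1, the basic helix-loop-helix factor required for the formation of all blood lineages, was the only tested factor with a negative estimate. It had 32.2, 420.1, 27.9 and 212 normalized counts in Control replicates 1 to 4 and 1.07, 98.4, 17.6 and 88.5 in IRF8 KO replicates 1 to 4. In both groups replicates 2 and 4 were high and replicates 1 and 3 low, and the groups overlapped. The log2 fold change of -1.99 had a standard error of 1.36 and did not pass the threshold (limma adjusted p = 0.36). Against the Control library of the same number, the IRF8 KO libraries differed by -4.01, -2.08, -0.64 and -1.25, and with the replicate number as a block TAL1 passed (SE 0.54, adjusted p = 0.031). IRF8 KO replicate 1 rested on 1 read.

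TAL1 and GATA2 varied more among the Control libraries than most genes. Their SD on the log2 scale was 1.93 and 1.08 within Control, against a median of 0.28 over all tested genes, of which 5.64% had an SD above 1. The 2 genes were split in opposite directions, since replicates 1 and 3 minus replicates 2 and 4 gave 1.85 for GATA2 and -3.27 for TAL1 within Control. Within IRF8 KO the same difference was 0.35 for GATA2 and -3.93 for TAL1. IRF8 was split too, by 1.11 in Control and 1.07 in IRF8 KO. What separates these replicates is not stated in the labels, and its part in these values was not tested. For ERG, FLI1, HHEX and LYL1 the split within Control was at most 0.23 in size, and their log2 fold changes within replicates 1 and 3 and within replicates 2 and 4 had the same sign (3.56 and 3.50 for ERG, 0.76 and 0.53 for FLI1, 1.10 and 0.52 for HHEX, 0.80 and 0.32 for LYL1).

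**Figure D3:**
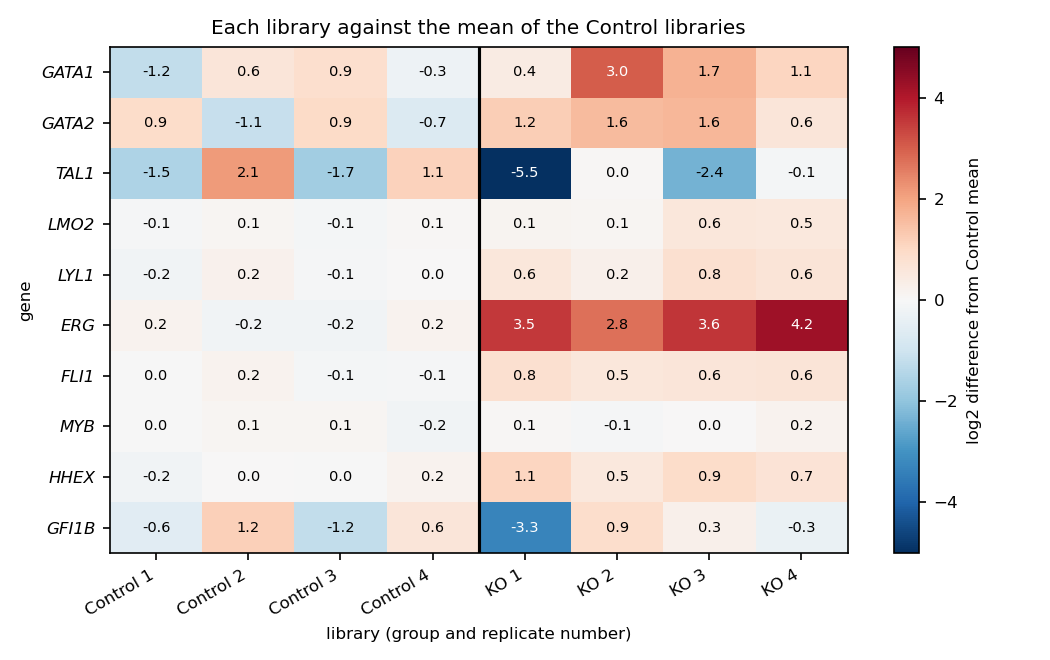
Log2 difference of each library (columns, group and replicate number) from the mean of the Control libraries, on log2(normalized count + 1), for the 10 factors (rows); red is above and blue below the Control mean. The ERG row is red in all IRF8 KO libraries, and the TAL1 row alternates between odd and even replicates in both groups.

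LMO2, the adaptor that holds the complex together, had 5301, 6044, 5188 and 5842 normalized counts in Control replicates 1 to 4 and 6123, 5918, 8315 and 8153 in IRF8 KO replicates 1 to 4. IRF8 KO replicates 3 and 4 were the highest libraries, while replicate 2 lay within the Control range. The means were 5594 ± 414 and 7127 ± 1282 (SD, n = 4 each), and the log2 fold change of 0.33 (SE 0.15) did not pass the threshold (limma adjusted p = 0.154, and 0.107 with the block). MYB had 33717, 37514, 37008 and 30610.4 in Control and 36084, 32864, 35439 and 39602 in IRF8 KO, in the order of the replicates. The groups overlapped throughout, with means of 34712 ± 3211 and 35997 ± 2777 (SD, n = 4 each) and a log2 fold change of 0.05 (SE 0.11, limma adjusted p = 0.80). The sign of this small MYB estimate turned with quantile normalization (-0.064) and without Control replicate 4 (-0.0049).

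Among 21 partners of these factors, all tested, no gene was called higher and 3 were called lower, TCF3, CBFA2T3 and CBFA2T2, against 8.65% and 9.56% of all tested genes. TCF3, the E protein that pairs with TAL1 and LYL1, had a mean of 23069 ± 1848 in Control and 17072 ± 1409 in IRF8 KO (SD, n = 4 each), with a log2 fold change of -0.43 (SE 0.11, limma adjusted p = 0.026). CBFA2T3, a corepressor of TAL1 complexes also known as ETO2, had means of 6182 ± 589.9 and 3741 ± 481, a log2 fold change of -0.73 (SE 0.13, limma adjusted p = 0.0051). Its relative CBFA2T2 had means of 978 ± 249 and 358 ± 102, a log2 fold change of -1.46 (SE 0.26, limma adjusted p = 0.0060). CBFA2T2 is a gene of chromosome 20, where the median log2 fold change over 351 tested genes was -0.92 and 214 were called lower. Relative to that chromosome in each library its difference was -0.54, with overlapping groups (two-sided exact permutation p = 0.17). The median over the 21 partners was -0.19, and with the replicate block 2 were called higher and 7 lower, against 14.2% and 14.6% of all tested genes. The TCF3 call was lost without Control replicate 1, 2 or 3 or IRF8 KO replicate 1 or 4 (limma adjusted p between 0.061 and 0.078).

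Among 22 family relatives, 14 were tested, with 2 called higher, 2 lower (8.65% and 9.56% of all tested genes) and a median log2 fold change of 0.04. GFI1, the myeloid counterpart of GFI1B, was higher, with means of 6092 ± 624 in Control and 8969.7 ± 1614 in IRF8 KO (log2 fold change 0.55, SE 0.15, limma adjusted p = 0.032). NHLH1, a basic helix-loop-helix relative of TAL1 and LYL1, was at a low level of 24.3 ± 4.56 in Control and 54.8 ± 12.9 in IRF8 KO (log2 fold change 1.13, SE 0.28, limma adjusted p = 0.024). The ETS factor SPIB of B cells and plasmacytoid dendritic cells fell from 1177 ± 88.7 to 347 ± 253 (log2 fold change -2.08, SE 0.50, limma adjusted p = 0.021). ETS2 had 14232, 14425, 12973 and 12792 in Control and 6532, 12760.2, 6091 and 6979.6 in IRF8 KO (log2 fold change -0.82, SE 0.22, limma adjusted p = 0.036). ETS2 replicate 2 of IRF8 KO lay just under the Control range, and relative to the other genes of chromosome 21 its difference was -0.48 (two-sided exact permutation p = 0.14). None of the 4 calls held without every single library. GFI1 lost it without Control replicate 1, 3 or 4 or IRF8 KO replicate 1 or 4, and NHLH1 without Control replicate 1 or 4 or IRF8 KO replicate 3 or 4 (limma adjusted p between 0.058 and 0.087 over both genes). SPIB lost it without Control replicate 1 or IRF8 KO replicate 4 (0.052 and 0.053), and ETS2 without any library other than IRF8 KO replicate 2 (0.067 to 0.094).

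Genes of the red cell programme were examined because GATA1, TAL1, LMO2 and GFI1B act there. Of 39 erythroid genes, 17 were tested and 9 were at 0 in every library. 4 were called higher (XK, NFE2, KLF1 and BCL11A) and 1 lower (EPOR), against 8.65% and 9.56% of all tested genes, with a median log2 fold change of 0.15. XK, a membrane protein that carries the Kx blood group, had 201, 381, 199.7 and 374 in Control and 3423, 6006, 8099 and 10351 in IRF8 KO (ratio of means 24.1, log2 fold change 4.54, SE 0.37, limma adjusted p = 1.4e-04). NFE2, a factor of erythroid and megakaryocytic genes that is also present in other myeloid cells, rose from 1284 ± 186 to 4431 ± 781 (log2 fold change 1.78, SE 0.16, limma adjusted p = 2.4e-04). KLF1, an erythroid factor downstream of GATA1, was counted at 7.52 ± 1.96 in Control and 28.3 ± 11.7 in IRF8 KO (log2 fold change 1.73, SE 0.37, limma adjusted p = 0.013). KLF1 passed the filter on low values only through the knockout libraries. BCL11A, a repressor of fetal globin that is also expressed in B cells, rose from 3083 ± 443 to 5235 ± 942 (log2 fold change 0.76, SE 0.17, limma adjusted p = 0.014), and was named after its values were seen. EPOR, the erythropoietin receptor, had means of 774 ± 135 and 515 ± 55.6 (log2 fold change -0.57, SE 0.17, limma adjusted p = 0.042), a call that was lost without any 1 of the 8 libraries (adjusted p between 0.053 and 0.113).

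Of 28 megakaryocyte genes, 16 were tested, with 2 called higher, 2 lower (8.65% and 9.56% over all tested genes) and a median log2 fold change of -0.80. CLEC1B, a platelet receptor for podoplanin, had 0.804, 0, 3.22 and 2.83 normalized counts in Control and 198, 13.4, 55.5 and 28.5 in IRF8 KO (limma adjusted p = 0.0077). THBS1, the secreted thrombospondin that monocytic cells also make, had 28.2, 25.0, 23.6 and 25.4 in Control and 2473, 73.6, 543 and 418 in IRF8 KO (log2 fold change 4.09, SE 0.87, limma adjusted p = 0.012). In both genes IRF8 KO replicate 1 was the highest and replicate 2 the lowest of the knockout libraries. F2RL3, a thrombin receptor, fell from 3685 ± 1123 to 793 ± 645 (log2 fold change -2.62, SE 0.63, limma adjusted p = 0.021), and lost the call without Control replicate 4 (0.055) or IRF8 KO replicate 3 (0.060). GNAZ, a G protein subunit, fell from 105 ± 13.3 to 18.9 ± 5.33 (log2 fold change -2.44, SE 0.27, limma adjusted p = 5.0e-04). With the replicate block 3 genes of this list were called higher and 5 lower, against 14.2% and 14.6% of all tested genes. CLEC1B, as ERG and KLF1, passed the filter on low values only through the knockout libraries.

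GATA2 and GATA1 also direct mast cells and basophils. Of 25 genes of these cells, 16 were tested, with 3 called higher, 3 lower (against 8.65% and 9.56% of all tested genes) and a median log2 fold change of -0.65, also with CPA3 at its lower bound. CPA3, the mast cell carboxypeptidase, was at 0 in all 4 Control libraries and at 6.39, 28.7, 27.1 and 53.1 normalized counts in IRF8 KO, at least 10.4-fold higher than a floor of 3 reads per Control library (limma adjusted p = 0.0013), and passed the filter only through the knockout libraries. Without the filter, 4 genes of this list were called higher and 4 lower of 24, against 6.68% and 7.46% of all genes then tested. The added genes, named after their values were seen, were FCER1A and IL1RL1. FCER1A, a chain of the IgE receptor, had 15, 7, 13 and 10 reads in Control and 0 in every IRF8 KO library, at least 3.17-fold lower against a floor of 3 reads per knockout library (unfiltered limma adjusted p = 2.1e-04). IL1RL1, the receptor of interleukin 33, had 2, 0, 0 and 0 reads in Control and 10, 10, 1 and 7 in IRF8 KO (unfiltered limma adjusted p = 0.020), with overlapping groups. PRG2, a granule protein of eosinophils and basophils, rose from 39.6 ± 11.2 to 246 ± 82.2 (log2 fold change 2.57, SE 0.32, limma adjusted p = 0.0010). MITF, a factor of mast cells and pigment cells, rose from 341 ± 10.2 to 584 ± 105 (log2 fold change 0.76, SE 0.16, limma adjusted p = 0.011). The cytokine receptor subunits IL3RA and CSF2RB fell, IL3RA from 4142 ± 753 to 1039.9 ± 266 (log2 fold change -2.01, SE 0.20, limma adjusted p = 3.6e-04) and CSF2RB from 2950.3 ± 269 to 1692 ± 153 (log2 fold change -0.80, SE 0.12, limma adjusted p = 0.0023). SIGLEC6, a lectin of mast cells, had 685, 1541, 497 and 1172 in Control and 98.0, 768, 56.9 and 79.7 in IRF8 KO, with groups that overlapped through IRF8 KO replicate 2. Its log2 fold change was -2.69 (SE 0.77, limma adjusted p = 0.042), and the call was lost without any library other than IRF8 KO replicate 2 (0.054 to 0.111).

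Stem and progenitor genes were mostly lower where they were called. Of 34 listed genes, 33 were in the file and 19 were tested, with 2 called higher, 7 lower (8.65% and 9.56% for all tested genes) and a median log2 fold change of -0.56. DPYSL3, a cytoskeletal protein, fell from 510.2 ± 302 to 40.8 ± 19.7 (log2 fold change -3.56, SE 0.54, limma adjusted p = 0.0027). SOX4, a factor of immature blood cells and leukemias, fell from 21983 ± 1365 to 12731 ± 2312 (log2 fold change -0.80, SE 0.14, limma adjusted p = 0.0055). MEIS1, the HOXA9 cofactor of KMT2A-rearranged leukemia, fell from 3143 ± 269 to 2157 ± 378 (log2 fold change -0.56, SE 0.14, limma adjusted p = 0.029), and the RNA-binding protein MSI2 from 3395 ± 787 to 1961 ± 338 (log2 fold change -0.78, SE 0.19, limma adjusted p = 0.025). MEIS1 lost its call without any library other than IRF8 KO replicate 2 (limma adjusted p of up to 0.079), and MSI2 without Control replicate 2 or 4 or IRF8 KO replicate 1 or 3 (up to 0.069). Outside the rule for named genes, SOX4, MEIS1, MSI2 and DNMT3B were chosen with their values in view. The DNA methyltransferase DNMT3B (log2 fold change -1.60) and ZBTB46 (-1.92), a zinc finger factor of dendritic cells, lie on chromosome 20. Relative to that chromosome their differences were -0.67 with overlapping groups (two-sided exact permutation p = 0.11) and -0.99 without overlap (p = 0.029, exact).

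The remaining called genes of the stem and progenitor list were IKZF2, AKR1C3 and MN1. IKZF2, a lymphoid and stem cell zinc finger factor, fell from 301 ± 174 to 62.6 ± 55.1 (log2 fold change -2.53, SE 0.70, limma adjusted p = 0.036). The call was lost without Control replicate 2, 3 or 4 or IRF8 KO replicate 1, 2 or 3 (0.052 to 0.089). AKR1C3, an aldo-keto reductase, had 45.0, 80.2, 48.3 and 275 in Control and 168, 410.0, 2085 and 2336 in IRF8 KO (log2 fold change 3.18, SE 0.92, limma adjusted p = 0.044), and the groups overlapped through Control replicate 4. MN1, a transcriptional coactivator, rose from 67.0 ± 19.0 to 138 ± 38.8 (log2 fold change 1.03, SE 0.29, limma adjusted p = 0.039). AKR1C3 lost its call without Control replicate 1, 2 or 3 or IRF8 KO replicate 2, 3 or 4, and MN1 without any library other than Control replicate 2 (limma adjusted p between 0.051 and 0.113 over both genes).

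**Figure D4:**
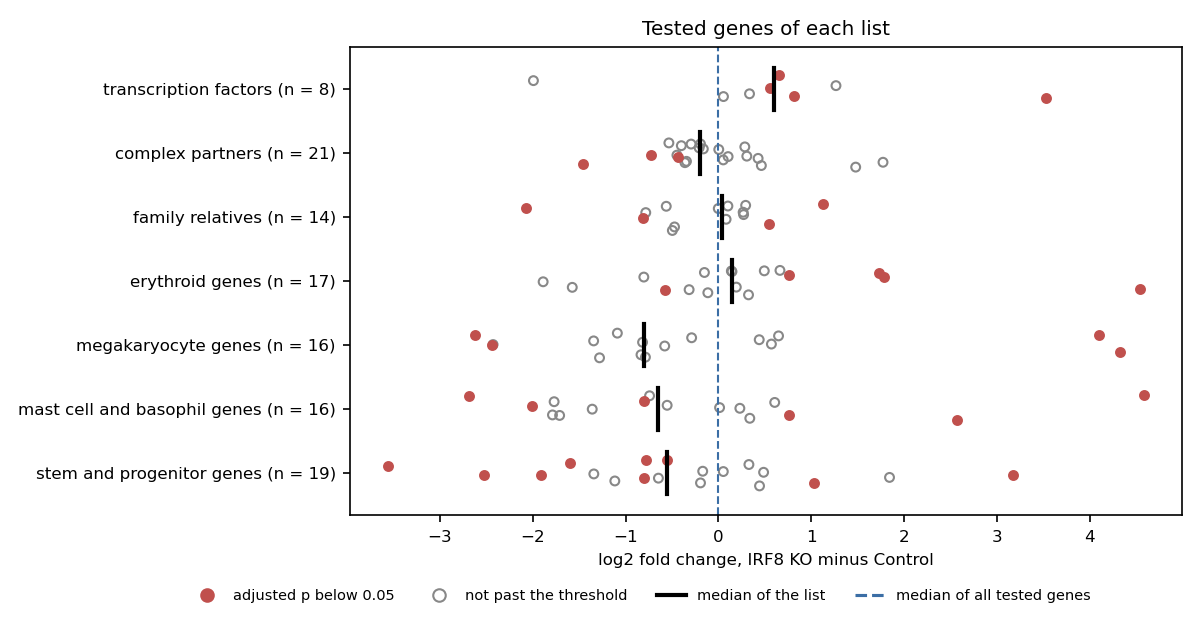
Log2 fold changes of the tested genes of each list (rows, with the number tested), with filled points for genes called at an adjusted p below 0.05, open points for the others, a black bar at the list median and a dashed line at the median of all tested genes. The transcription factors have a median of 0.60, and the stem and progenitor genes one of -0.56.

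For each tested factor, the genes with the most similar profile over the 8 libraries were found by Pearson correlation on log2(normalized count + 1). With 13110 candidates and only 8 libraries in 2 groups, high values arise readily, and they are given as a description. TAL1 ran closest with EBF1 (0.996), a B cell factor, and GATA2 with INTS13 (0.981), a subunit of the Integrator complex. HHEX ran closest with DAPP1 (0.997), an adaptor of lymphocyte signaling, and FLI1 with TIRAP (0.990), an adaptor of Toll-like receptors that lies on chromosome 11 as FLI1 does. The closest genes of ERG were GALNT10 (0.995) and AP3S1 (0.995), those of LMO2 were NDUFS4 (0.977) and MAT2B (0.975), and those of LYL1 were GPR137B (0.982) and YIPF5 (0.979). The second genes of the others were TEX10 for GATA2 (0.977), CCDC71L for TAL1 (0.988), MFSD9 for FLI1 (0.990) and GDPGP1 for HHEX (0.987). For MYB, PHKG1 (0.930) and AL136295.5 (0.908) came closest. Of these 16 genes, EBF1, GALNT10, AP3S1, NDUFS4, MAT2B and YIPF5 lie on chromosome 5. That chromosome held 592 of the 13012 tested genes placed on chromosomes. Their median log2 difference from the Control mean was 0.11 in IRF8 KO replicate 1, 0.10 in replicate 2, 0.34 in replicate 3 and 0.40 in replicate 4. EBF1 had a negative log2 fold change (-0.65), while the other named genes of chromosome 5 had positive ones (0.41 to 1.23). The part of the chromosome 5 shift in the similar profiles was not tested.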

How the data were processed

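RNA-Seq was analysed from 4 Control and 4 IRF8 KO libraries of MV4-11 cells. Alignment by the authors used RNA-Star 2.7.2b with GENCODE v32, and counting featureCounts 2.0.1, and the processing notes name the builds hg19 and hg38 without saying which served RNA-Seq. The authors deposited a signal per gene and library, counts normalized with DESeq2, and a table of the comparison (log2 fold changes, p-values), which was not used. Columns named as wild type were taken as Control, and 0 columns stayed without a library. Whole reads were recovered from the deposited signal for 100% of values within 0.01 reads. The IRF8 ChIP-Seq samples were not analysed here.

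The values were tested as log2(normalized count + 1) with limma 3.58.1 in R 4.3.3 (trended, robust prior) for genes with a mean of at least 10 (13110 of 19590). p-values were adjusted by Benjamini-Hochberg over these genes. Exact permutation tests were two-sided (scipy 1.17.1). edgeR 4.0.16 and DESeq2 1.42.0 were run on the recovered reads as alternatives, beside other pseudocounts, filters, scalings, library weights, thresholds, a replicate block and the omission of single libraries. Scripts were tested on simulated data. The 10 genes, the 6 gene lists and the tests were chosen with earlier results of these data known. Named were the 10 genes, IRF8, RUNX1, the 3 largest called rises and falls of each list, and the 2 genes most similar to each factor. The RefSeq table placed 13012 of the tested genes on chromosomes by symbol.

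Same-numbered libraries deviated together from their group means (correlations across genes of 0.37, 0.48, 0.45 and 0.50 for replicates 1 to 4). The numbers were used as a block, though what a number marks is not given. Control replicate 1 with IRF8 KO replicate 3 gave 0.47, and Control replicate 3 with IRF8 KO replicate 1 gave 0.41. Control replicate 2 with IRF8 KO replicate 4 gave 0.40, and Control replicate 4 with IRF8 KO replicate 2 gave 0.41. These correlations split replicates 1 and 3 from 2 and 4, and do not single out a pairing by number. Control replicates 1 and 3 were the most alike pair (median chi-square per gene of 1.57, against 5.88 or more for other Control pairs) and still differed beyond counting noise. They were counted as separate samples, though this difference does not show that they were separate cultures.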

Additional observations from a re-analysis of the deposited data

Results flagged for a closer look

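In 5 of 76 groups of 4 libraries, among the factors and the named genes, a single library stood apart from the other 3 by Dixon's criterion, which chance meets in about 1 of 20 groups. ETS2 had 12760.2 normalized counts in IRF8 KO replicate 2, against 6091 to 6979.6 in the other knockout libraries. SIGLEC6 had 768 in the same library, against 56.9 to 98.0 in the others. AKR1C3 had 275 in Control replicate 4, against 45.0 to 80.2 in the other Control libraries. MITF was at 739.6 in IRF8 KO replicate 1, against 523 to 548 in the others, and at 326 in Control replicate 2, against 346 to 347 in the others. None of the 10 transcription factors was among them.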

How the results depend on the processing

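With the replicate block, 1857 genes were called higher and 1912 lower, with 1 factor lower (TAL1), 9 complex partners and 8 megakaryocyte genes. With replicates 1 and 3 against 2 and 4 as covariate the counts were 2157 and 2176, with 1 factor lower, 8 partners and 8 megakaryocyte genes. Beyond these counts, the block brought GATA2, TAL1 and RUNX1 past the threshold and took ERG against FLI1 and ERG against chromosome 21 to p = 0.125 (exact, at 2.88 and 3.87), the smallest 4 pairs allow. At an adjusted p below 0.01, 525 genes were higher and 636 lower, with 0 family relatives, 2 erythroid, 2 megakaryocyte and 4 stem and progenitor genes. By the study's thresholds, 627 were higher and 802 lower, with 1 factor, 1 partner, 2 family relatives and 3 erythroid genes. Library weights called 5 partners, and a mean of at least 100 left 2 megakaryocyte genes. With Control replicates 1 and 3 averaged, chosen after seeing the data, 0 family relatives, 5 stem and progenitor genes and 3 factors were called, and LYL1 (adjusted p = 0.086) and IRF8 (0.058) fell short. Among single calls, edgeR left SIGLEC6 (adjusted p = 0.153), ETS2 (0.059), IKZF2 (0.057) and MN1 (0.051) short of the threshold, quantile normalization GFI1 (0.062), and library weights IKZF2 (0.083) and EPOR (0.064). The difference of GATA2 and GATA1 turned to 0.45 with a pseudocount of 5, and MYB turned to -0.064 with quantile normalization. Leaving out 1 library gave 755 (without Control replicate 1) to 1164 genes higher, 910 to 1278 lower, 3 to 4 factors higher and 0 lower. It gave 2 to 3 partners, 0 to 5 family relatives, 3 to 6 megakaryocyte, 5 to 6 mast cell and basophil, and 5 to 7 stem and progenitor genes. Without 1 library, ERG against FLI1 ranged from 2.64 to 3.10 and ERG against chromosome 21 from 3.63 to 4.13 (exact p = 0.057, the smallest possible with 3 against 4). LYL1 against TAL1 ranged from 1.37 to 3.34, and GATA2 against GATA1 from -0.90 to 0.40, positive without Control replicate 1 (0.40) and without IRF8 KO replicate 2 (0.083), while MYB ranged from -0.0049 without Control replicate 4 to 0.097. The cause of these shifts was not tested. Values of few reads, as for GATA1 and Control ERG, limit precision, and intervals between libraries do not separate clones from the knockout.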
